A study of Mus musculus with 8 samples.

Results

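Enteroendocrine cells of the stomach and of the duodenum, sorted as GFP-positive cells from adult Ngn3-GFP mice, were compared across the transcriptome, on every gene row of the expression table. The members are all 18131 rows, taken by rule without regard to their values, and the comparison used 6 of the 8 arrays of the series, 3 labelled gastric and 3 labelled duodenal enteroendocrine cells. The 2 arrays of colonic GFP-positive cells entered the fit for their share of the spread and are quoted beside some values. In these mice GFP is driven by Ngn3, the older name of Neurog3, which commits gut progenitors to the endocrine fate, and all groups carry this reporter and no other listed allele or treatment. The gastric cells came from the pyloric (antral) stomach. Stomach glands were released with a longer EDTA step and separated with Accutase, while duodenal epithelium was given a shorter EDTA step and dispase, so dissociation and segment cannot be told apart. The labels give neither the sex nor the number of animals, nor say that each array had its own animal, so p-values reflect the spread among these arrays alone, and that spread may be technical. Precision is limited by the number of arrays.

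The antral stomach secretes mucus, pepsinogen and gastrin, whereas the duodenum digests and absorbs nutrients, meets bile and pancreatic juice, and defends a large surface. Enteroendocrine cells are scattered through both epithelia. They store peptide hormones and amines in dense granules and release them when receptors and channels at their surface are stimulated by food, acid or nerves.

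Values are log2 expression values, and a difference is gastric minus duodenal. A gene was called when limma's Benjamini-Hochberg adjusted p over all rows was under 0.05. Of the 18131 rows, 8446 (46.6%) were called, 4115 (22.7%) higher in gastric and 4331 (23.9%) higher in duodenal cells. Most of these differences were small, as 83.3% of the called rows differed less than 2-fold. Called rows with at least a 2-fold difference numbered 1408 (7.77%), with 738 higher in gastric and 670 higher in duodenal cells. At 4-fold or more the numbers were 202 each way, and at 16-fold or more they were 32 higher in gastric and 14 higher in duodenal cells. Olfactory receptor rows, most of which belong to genes that are silent outside the nose, gave a background level of 6.81. It is the 95th percentile of the single values of their 1070 rows on all 8 arrays. Of these rows, 51 (4.77%) were called, with 0 at 2-fold. Among the 10575 rows above that level in at least 1 group, 75.2% were called, and of the calls at 2-fold or more, those higher in gastric cells made up 6.98% of these rows and those higher in duodenal cells 6.34%. Counts within gene groups below are read against these shares, and a group near them is not set apart by its count. The groups were chosen with earlier results of these data known, so a count above the shares may partly reflect that choice. Such counts are descriptions only.

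**Figure D1:**
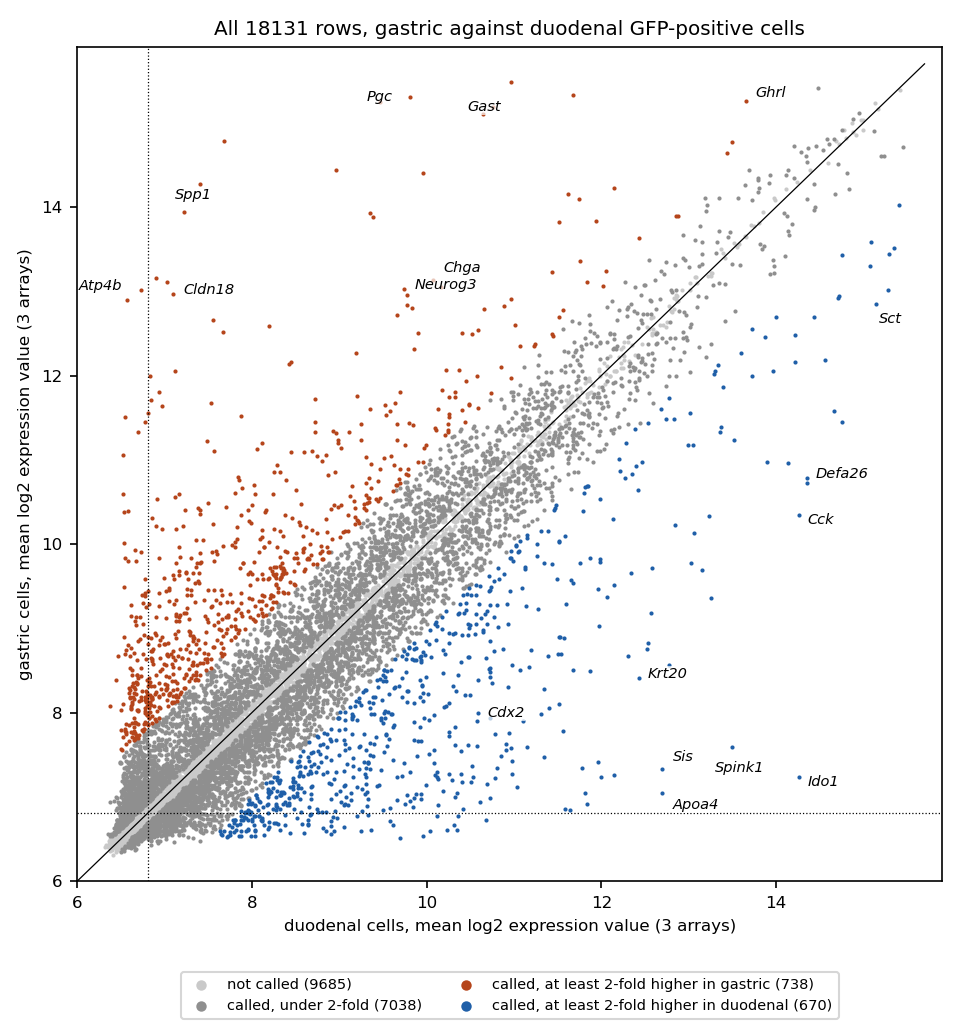
Mean log2 expression value of each of the 18131 rows in the 3 duodenal arrays (horizontal axis) and the 3 gastric arrays (vertical axis), with 1 point per row, equality as the diagonal and the background level of 6.81 as dotted lines. Coloured points are the 738 and 670 rows called with at least a 2-fold difference, and they form 2 wings that reach from background to above 14.

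The arrays of each group were close to each other, with correlations across rows of 0.9974 to 0.9980 within a group and 0.9131 to 0.9142 between gastric and duodenal arrays. Rows are not independent replicates, so these values describe likeness only. Markers of other epithelial cells differed between the groups. The log2 of the summed value of 13 enterocyte marker genes was 12.44 to 12.48 in gastric and 15.65 to 15.68 in duodenal arrays, and that of 25 genes of gastric mucous and antral gland cells was 17.82 to 17.83 and 13.58 to 13.59. For 30 leukocyte markers it was 11.77 to 11.80 and 12.55 to 12.57, and for 20 tuft cell markers 12.41 to 12.43 and 12.52 to 12.56. Stromal, endothelial, muscle and neural markers summed to nearly the same level, 11.41 to 11.42 and 11.38 to 11.42, but 17 of these 26 genes were under background in both groups. Of the 30 leukocyte markers, 14 were. Values under background add to such sums, so nearly equal sums do not measure an equal share of these cells. The part of these cell types in the results below was not tested. In RNA pooled from many cells, fewer cells of a type and less RNA per cell cannot be told apart.

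Neurog3, the gene for which the reporter is named, and the general endocrine marker Chga were higher in gastric arrays. Where 3 values stand against 3, the gastric arrays come first. Neurog3 was 13.07, 13.08 and 12.95 in the gastric and 9.72, 9.77 and 9.73 in the duodenal arrays. Chga, which encodes chromogranin A, a core protein of dense granules, was 13.06, 13.14 and 13.18 against 10.05, 10.09 and 10.08. Both genes were well above background in all 6 arrays, and for each the groups were far apart.

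The largest differences ran to more than 64-fold. Of all rows, LOC100046120 (138-fold) and the intrinsic factor row GIF (116-fold) had the largest differences towards gastric cells, but neither matched a gene symbol of the reference, and LOC100046120 was named after its value was seen. Among rows matched to a gene, Spp1, which encodes the secreted phosphoprotein osteopontin, was 13.95, 13.94 and 13.93 in the gastric and 7.18, 7.22 and 7.26 in the duodenal arrays, and the 105-fold difference had a limma adjusted p of 4.22e-19 (log2 difference 6.72, SE 0.05). Atp4b, the beta subunit of the acid-secreting proton pump of parietal cells, was 12.94, 12.86 and 12.92 in gastric arrays and at background in duodenal arrays, at 6.57, 6.50 and 6.64, so it was at least 68.2-fold higher. On the duodenal side, Ido1, the enzyme that starts tryptophan breakdown to kynurenine, was 7.19, 7.31 and 7.19 in the gastric and 14.25, 14.30 and 14.25 in the duodenal arrays, and the 131-fold difference had a limma adjusted p of 4.22e-19 (log2 difference -7.03, SE 0.05). Adjusted p-values of the 30 genes named in the next paragraphs ran from 4.22e-19 to 1.4e-16, with SEs of 0.04 to 0.07. The gastric arrays of Ido1 lay just above background and its duodenal arrays near the top of the scale, with no overlap.

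Among the 15 genes with the largest differences towards gastric cells, of rows matched to a gene, several encode digestive enzymes of a pancreatic type. Pla2g1b, a phospholipase of pancreatic juice, was 76.6-fold higher, Pnliprp1, a relative of pancreatic lipase, was 44.7-fold higher, and Cel, a lipase activated by bile salts, was 34.5-fold higher. Cldn18, a tight junction protein of stomach epithelium, was 58.8-fold higher, the gastrokine gene Gkn3 55.1-fold, the pepsinogen gene Pgc 45.2-fold, the water channel gene Aqp5 35.9-fold, the membrane mucin gene Muc1 29.1-fold, the scavenger receptor gene Scara3 at least 26-fold and the prohormone convertase gene Pcsk2 30.8-fold. Of the major urinary protein rows, Mup1 was at least 73.4-fold, Mup2 67.9-fold and Mup6 29.3-fold higher. These paralogs are nearly identical, so which of them the probes measured is uncertain. In colonic cells, 11 of these 15 genes had means under the background level.

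Among the 15 genes with the largest differences towards duodenal cells, most act in digestion and absorption. The trypsin inhibitor gene Spink1 was 60.1-fold higher, the apolipoprotein genes Apoa4 and Apoc3 50.3-fold and 30.4-fold, and the genes for the sugar-splitting enzymes sucrase-isomaltase (Sis) and trehalase (Treh) 41.3-fold and 27.2-fold. Rbp2, a carrier of vitamin A in enterocytes, was 23.4-fold higher. Amn, a partner of the receptor that takes up vitamin B12 bound to intrinsic factor, was 15.1-fold higher, and Slc51a, a subunit of the exporter that returns bile acids to the blood, 21.7-fold. The others were Ms4a10 (29.5-fold), the antibacterial lectin gene Reg3a (27.2-fold), the P450 gene Cyp4f14 (26.5-fold), the keratin gene Krt20 (16.2-fold), the brush border scaffold gene Pdzk1 (at least 14.6-fold) and the hormone gene Cck (15.1-fold). Several of these, such as Spink1 at 14.84 and 14.64, were also high in the colonic arrays, while Apoa4, at 6.66 and 6.65, was at background there.

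**Figure D2:**
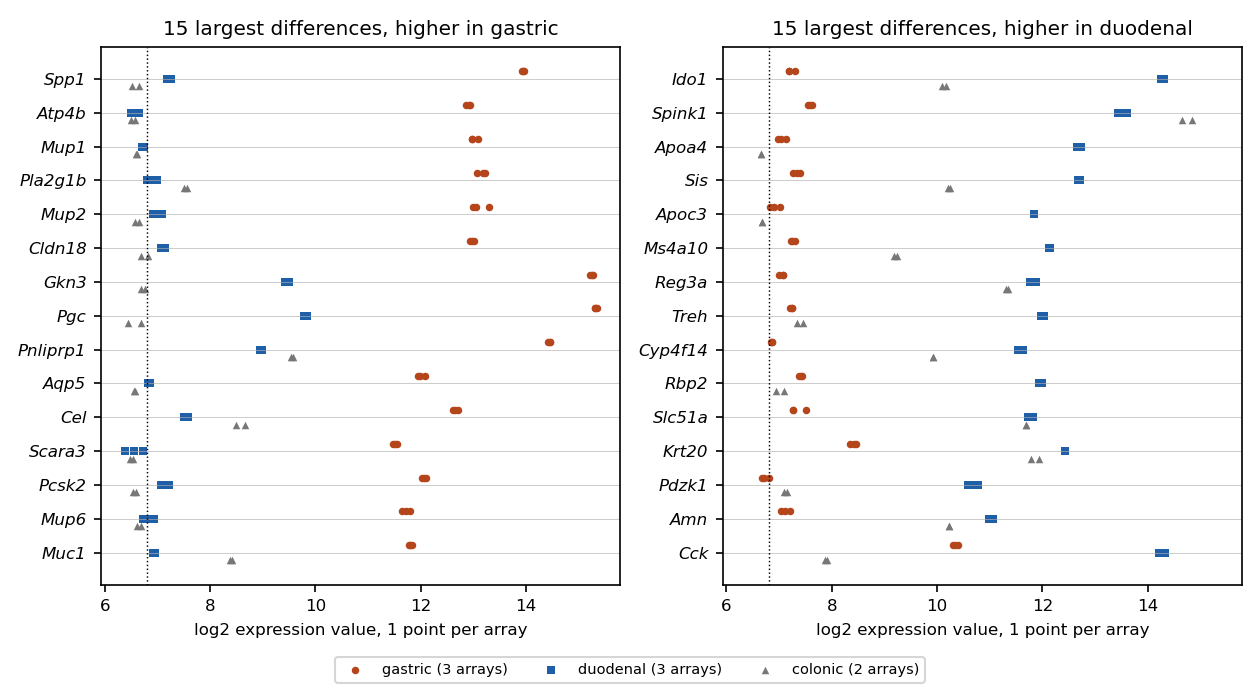
Log2 expression value on each array for the 15 genes with the largest differences each way, with gastric arrays as circles, duodenal arrays as squares, colonic arrays as triangles and the background level of 6.81 as a dotted line. Gastric and duodenal points do not overlap for any of the 30 genes, as the selection required, and colonic points lie near background for most genes on the left and at varied levels on the right.

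The promoters of Sis and Cldn18 are shown as examples. Of the genes considered for printing and at least 4-fold higher, Sis had the largest difference among duodenal genes with a CDX motif. Cldn18 had the largest among gastric genes with a GATA motif. Not every gene was considered for printing, and Spink1, with a larger difference than Sis, was left out whatever its motifs. Both strands were searched for short motifs of factor families that act in gut epithelium. Searched were the letters TTTATNG for the CDX family, GTTAAT for the HNF1 family, CAAAGTCCA for the HNF4 family and, for the family of GATA zinc finger factors, the letters AGATAA. The sequences are the 250 bases before the gene start from RefSeq, build GRCm38.p6, for Sis at chr3:72967864-72968113, minus strand, and for Cldn18 at chr9:99717268-99717517, minus strand, printed 5′ to 3′ in the direction of the gene, and capitals mark the matches. In Sis these are an HNF1 motif at bases 165 to 160 before the start and a CDX motif at bases 52 to 46, both on the reverse strand. In Cldn18 they are an HNF1 motif at bases 240 to 235, a GATA motif on the reverse strand at bases 146 to 141 and another on the forward strand at bases 131 to 126. No matches overlapped.
Sis: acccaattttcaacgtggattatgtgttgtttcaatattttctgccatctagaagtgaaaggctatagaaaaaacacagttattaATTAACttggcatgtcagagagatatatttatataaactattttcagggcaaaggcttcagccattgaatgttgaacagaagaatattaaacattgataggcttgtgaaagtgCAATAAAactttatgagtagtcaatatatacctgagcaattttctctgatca
Cldn18: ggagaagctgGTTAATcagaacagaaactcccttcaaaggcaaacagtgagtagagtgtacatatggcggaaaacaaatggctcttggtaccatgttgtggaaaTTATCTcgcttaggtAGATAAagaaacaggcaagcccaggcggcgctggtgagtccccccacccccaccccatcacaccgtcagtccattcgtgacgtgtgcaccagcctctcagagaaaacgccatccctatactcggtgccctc

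Across 13415 genes with such a sequence, 8.83% held the CDX motif on either strand, 8.84% the GATA motif and 5.72% the HNF1 motif. Of 147 matched genes at least 4-fold higher in duodenal cells, 17.0% held the CDX motif, 14.3% the GATA motif and 16.3% the HNF1 motif. Of 141 matched genes at least 4-fold higher in gastric cells the shares were 10.6%, 12.1% and 8.51%. The HNF4 motif was rare, with 0.388% of all, 2.04% of the duodenal and 0 of the gastric promoters. Promoters of genes above background in at least 1 group held the CDX, GATA and HNF1 motifs in 6.85%, 6.31% and 4.28%. A match describes letters in a window and says nothing of binding. Of the factors, Cdx1 and Cdx2, which direct intestinal fate, were 6.91-fold and 6.01-fold higher in duodenal cells, and Hnf4a, named after its value was seen, 2.13-fold higher. Gata4 was close in both groups (log2 difference 0.06, 95% interval -0.06 to 0.19), and Gata6 was 1.16-fold higher in gastric cells, a call that was lost without gastric replicate 1 (adjusted p 0.0536) and without duodenal replicate 3 (0.0516).

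Regulators of regional identity showed moderate differences. Of 16 measured gastric regulators, 9 were higher in gastric and 1 in duodenal cells. Sox2, a stomach fate factor, was 7.72, 7.82 and 7.67 in gastric arrays and 6.54, 6.61 and 6.54 in duodenal arrays. The duodenal arrays of Sox2 were at background, so it was at least 1.9-fold higher. Sox21, its relative, was at least 6.1-fold and the homeobox gene Hhex 6.41-fold higher in gastric cells, and the exception was the T-box gene Tbx3, 4.32-fold higher in duodenal cells. Of 22 intestinal regulators, 13 were higher in duodenal and 4 in gastric cells, led by the homeobox gene Isx (11.6-fold) and by Creb3l3, an activator of lipid genes (7.76-fold). Among those higher in gastric cells, Shh, Gata6 and Klf5 had log2 differences of 0.32, 0.21 and 0.14. The call of Klf5 was lost without gastric replicate 3 (adjusted p 0.0877) and without duodenal replicate 2 (0.0524), and that of Gata6 as given above.

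Genes of the endocrine program were mostly higher in gastric cells. Of 28 lineage factors, 23 were called higher in gastric and 2 in duodenal cells, with 15 and 0 at 2-fold and a median difference of 1.14, beside -0.01 over all rows. Isl1, a homeobox factor of hormone-producing cells, was 12.70, 12.76 and 12.71 in gastric and 9.58, 9.67 and 9.75 in duodenal arrays. Insm1, a zinc finger factor of endocrine precursors, was 11.07, 11.10 and 11.10 against 8.60, 8.55 and 8.66. For both genes the groups were separated by several times the spread within them. Lmx1a and Mnx1 were the exceptions, with log2 differences of -0.31 and -0.21. Mnx1 was near background in both groups.

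All 24 measured genes for hormone processing and granules were called, 21 higher in gastric and 3 in duodenal cells, with a median difference of 1.72 and 14 against 1 at 2-fold. Hdc, the enzyme that makes histamine, was 12.42, 12.52 and 12.61 in gastric and 7.63, 7.70 and 7.68 in duodenal arrays, and Slc18a2, which loads amines into vesicles, was 10.23, 10.24 and 10.19 against 7.02, 6.88 and 6.79. The duodenal arrays of Slc18a2 lay around the background level. The 3 genes in the opposite direction were the granin gene Scg2 (2.67-fold higher in duodenal cells), Qpct, an enzyme that caps peptide ends (1.8-fold), and Slc18a1, the second vesicular amine transporter (1.25-fold).

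Hormone genes went both ways. Of 33 measured, 8 were higher in gastric cells, 11 in duodenal cells and 14 were not called, and 11 were under background in both. Gast was 15.49, 15.49 and 15.49 in the gastric and 10.94, 10.97 and 10.97 in the duodenal arrays, and 15.49 was the highest value on any array, so its difference may be compressed. Cck was 10.30, 10.39 and 10.33 against 14.22, 14.33 and 14.22. Sst, which encodes somatostatin, was 15.43, 15.43 and 15.37 against 14.48, 14.41 and 14.55, so the somatostatin arrays were high in both groups, with the gastric ones higher. The gastric values of Sst were also close to 15.49, so its difference may be compressed as well. Ppy, which encodes pancreatic polypeptide, was 7.49 in gastric cells and at background in duodenal cells, while Ghrl and Pyy, which encode ghrelin and peptide YY, were 3.03-fold and 4.96-fold higher in gastric arrays. On the duodenal side, Nts, which encodes neurotensin, was 6.52, 6.62 and 6.70 against 10.29, 10.37 and 10.39, with all gastric arrays under background. The glucagon gene Gcg and the secretin gene Sct were 7-fold and 4.79-fold higher in duodenal cells. At 2-fold, 3 hormone genes were higher in gastric and 5 in duodenal cells. Calca and Nmb were near background in both groups, and their differences were within 0.25.

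Vesicle fusion genes went mostly the same way. Of 37 measured, 21 were higher in gastric and 8 in duodenal cells, with 10 and 1 at 2-fold. The vesicle glycoprotein gene Sv2a was at least 5.9-fold higher, the membrane fusion gene Stx1a 5.47-fold, the fusion clamp gene Cplx2 5.06-fold and synaptophysin (Syp) 4.58-fold. In the opposite direction, Sytl2, an effector of the GTPase Rab27, was 4.3-fold higher in duodenal cells, and Rab27b and Cplx1 were 1.81-fold and 1.63-fold higher. Paralogs differed in direction: Cplx2 was 9.27 ± 0.11 in gastric and 6.93 ± 0.16 in duodenal cells (SD, n = 3), and Cplx1 was 6.94 ± 0.02 and 7.64 ± 0.08 (SD, n = 3).

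Ion channels and second messenger genes showed the same lean. Of 34 channel genes, 19 were under background in both groups, 13 were higher in gastric and 2 in duodenal cells. Cacna1h, a low-threshold calcium channel subunit, was 10.82, 10.82 and 10.75 in gastric and 7.97, 7.79 and 7.75 in duodenal arrays. The sulfonylurea receptor gene Abcc8, a subunit of the potassium channel that senses ATP, was 5.78-fold higher, the calcium channel subunit gene Cacna2d1 5.2-fold and the potassium channel gene Kcnh2 3.27-fold. Trpm5, a cation channel of taste and tuft cells, was 1.6-fold higher in duodenal cells. Of 44 genes of G-protein and cyclic AMP signalling, 20 were higher in gastric and 8 in duodenal cells. The G-protein subunit genes Gnaz and Gng4 were 7.99-fold and 6.87-fold higher, the regulator gene Rgs9 at least 3.97-fold and the calcium release channel gene Itpr1 4.66-fold, while the adenylyl cyclase gene Adcy8 and the regulator gene Rgs2 were each 2.38-fold higher in duodenal cells.

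Of 42 measured receptor genes, 22 were under background in both groups. Called were 10 higher in gastric and 5 in duodenal cells, with 2 and 2 at 2-fold. Beside the 7.77% of all rows that differed at least 2-fold, this count does not set receptors apart. Cckbr, the gastrin receptor, was 9.84, 9.85 and 9.83 in gastric and 6.44, 6.65 and 6.55 in duodenal arrays, the latter all at background. Ffar2, a receptor for short-chain fatty acids, was 2.76-fold higher in gastric cells, and Adgrg4 and the adenosine receptor gene Adora2b were 4.23-fold and at least 2.12-fold higher in duodenal cells. Ffar4, a receptor for long-chain fatty acids, was close, at 10.69 ± 0.03 and 10.71 ± 0.03 (SD, n = 3; 95% interval of the difference -0.12 to 0.07). Among 51 neuronal adhesion and guidance genes, 24 were under background in both. Of the others, the ephrin gene Efna5 (at least 5.51-fold), the neurofilament gene Nefm (3.8-fold), the guidance receptor gene Nrp1 (2.82-fold) and Dcx, which binds microtubules in young neurons (at least 2.44-fold), were higher in gastric cells, and the ephrin genes Efnb2 (2.92-fold) and Efnb1 (1.71-fold) in duodenal cells.

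Products of the gastric glands stood high in the gastric arrays. Of 25 mucous and antral gland genes, 19 were higher in gastric cells, 17 of them at least 2-fold, and the median difference was 3.63, the largest of the 48 lists. The 4 higher in duodenal cells were Gsdma (at least 1.97-fold), Capn8 (at least 1.98-fold), Galnt6 (2.07-fold) and Upk1a (at least 1.17-fold). The list of chief and parietal cell genes also held enzymes of a pancreatic type, such as Cela1, Pnlip and Cpb1. Of its 25 genes, 14 were higher in gastric and 7 in duodenal cells. The intrinsic factor row GIF was 14.33, 14.27 and 14.20 in gastric and 7.38, 7.49 and 7.35 in duodenal arrays, and Atp4a, the catalytic pump subunit, was 11.42, 11.45 and 11.47 against 6.83, 6.70 and 6.81. Parietal and chief cells are known mainly from the body of the stomach, whereas the labels name the pylorus. GIF, Atp4a and Atp4b were high in all 3 gastric arrays, but the list was mixed, with a median difference of 0.58. At 2-fold, 10 of its genes were higher in gastric and 4 in duodenal cells. Those 4 were Ckb, the water channel gene Aqp4, Pnlip and Cpb1 (log2 differences -1.72, -1.44, -1.25 and -1.11).

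Enzymes of a pancreatic type split in direction. Cela1, an elastase, was 13.85, 13.99 and 13.94 in gastric and 9.34, 9.29 and 9.41 in duodenal arrays, a 23.9-fold difference. Clps, the cofactor of pancreatic lipase, was 2.41-fold higher in gastric cells. Pnlip, the lipase itself, and the carboxypeptidase gene Cpb1 went the other way, 2.38-fold and at least 2.14-fold higher in duodenal cells. Both were near background in gastric arrays. Ckb, a creatine kinase of parietal cells among others, was also 3.3-fold higher in duodenal cells.

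Glycosyltransferases that build mucin and blood-group sugars were more often higher in duodenal cells, 22 of 39 against 7. Fut2, which makes the H antigen on secreted mucins, was 10.60, 10.61 and 10.64 in gastric and 7.76, 7.78 and 7.84 in duodenal arrays, 7.06-fold higher in gastric cells. A4gnt, which adds the capping sugar of gland mucin, was at background in duodenal cells and at least 2.5-fold higher in gastric cells. B4galnt2, which adds the sugar of the Sda antigen, was 9.69, 9.71 and 9.74 against 12.56, 12.59 and 12.59, 7.28-fold higher in duodenal cells. St3gal4 and Fut4, a sialyl- and a fucosyltransferase gene, were 6.39-fold and 4.21-fold higher there.

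The brush border, the microvillus surface that finishes digestion, was one-sided. None of its 28 measured genes was called higher in gastric cells, 26 were called higher in duodenal cells, and 20 of these differed at least 2-fold (median difference -1.62). Sis was 7.40, 7.33 and 7.27 in gastric and 12.70, 12.71 and 12.68 in duodenal arrays (log2 difference -5.37, SE 0.05, adjusted p = 1.18e-18). Treh, which splits the sugar trehalose, was 7.24, 7.21 and 7.25 against 12.03, 11.98 and 11.99. The gastric arrays of both genes were low, and every duodenal array was high. Of the 13 enterocyte markers given above, which include Sis, 11 were called higher in duodenal cells. Their part in the brush border result was not tested. The other 2 were the enterocyte fatty acid carriers Fabp1 and Fabp2, named after their values were seen, which read under background in both groups (Fabp1 at 6.59 and 6.52, Fabp2 at 6.51 and 6.45), so their levels could not be told from background.

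Nutrient uptake genes went the same way. Of 32 transporters for sugars, amino acids, peptides and vitamins, 24 were higher in duodenal and 2 in gastric cells, with 11 and 0 at 2-fold. Slc7a9, a cystine and dibasic amino acid exchanger, was 7.21, 7.25 and 7.19 in gastric and 10.78, 10.78 and 10.77 in duodenal arrays. The neutral amino acid transporter gene Slc6a19 was 5.74-fold higher in duodenal cells, the folate transporter gene Slc46a1 5.54-fold and the glucose transporter gene Slc2a2 at least 4.36-fold. The exceptions were the nucleoside transporter gene Slc29a1 (1.77-fold higher in gastric cells) and the amino acid transporter gene Slc38a2 (1.49-fold). The riboflavin transporter gene Slc52a3 was close in both (95% interval of the difference -0.22 to -0.01), though it was called without gastric replicate 2 (adjusted p 0.0201).

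Of 32 fat absorption genes, 24 were higher in duodenal and 4 in gastric cells, with 18 and 1 at 2-fold (median difference -1.52). Apoa4, a chylomicron protein, was 6.98, 7.14 and 7.03 in gastric and 12.74, 12.72 and 12.65 in duodenal arrays. Mttp, which loads fat onto apolipoprotein B, was 10.1-fold higher, and Abcg5, which pumps plant sterols back to the lumen, 10.1-fold. Lpcat3, which remodels membrane phospholipids, was close in both (log2 difference -0.01, 95% interval -0.11 to 0.09). Of 34 genes of fatty acid oxidation and ketogenesis, 22 were higher in duodenal and 4 in gastric cells, with 4 and 0 at 2-fold. The thiolase genes Acaa1b and Acaa2 were 3.35-fold and 2.82-fold higher in duodenal cells, and Bdh1, of ketone body synthesis, 2.25-fold. Of 22 genes of sterol synthesis and its control, 14 were higher in duodenal cells. One that went the other way was Srebf2, the sterol-regulated activator, 1.48-fold higher in gastric cells.

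Genes of sugar metabolism were more often higher in duodenal cells. Of 29 measured, 18 were higher in duodenal and 7 in gastric cells, with 7 and 3 at 2-fold (median difference -0.34). Aldoc, the aldolase of neural and endocrine tissue, was 10.89, 10.86 and 10.80 against 8.93, 8.99 and 8.93, 3.73-fold higher in gastric cells, and its groups did not overlap. Ketohexokinase (Khk), the first enzyme of fructose use, was 5.43-fold higher in duodenal cells, Tkfc, which acts after aldolase, 4.21-fold, and the gluconeogenic gene Fbp1 4.48-fold. The enolase gene Eno2 of neurons and endocrine cells was at least 1.95-fold higher in gastric arrays. Pcx, pyruvate carboxylase, was close in both (log2 difference 0.02).

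Drug and steroid metabolism was one-sided too. Of 37 oxidising and hydrolysing enzymes none was called higher in gastric cells, 28 were higher in duodenal cells and 18 of these at least 2-fold. Cyp3a11, a P450 that acts on many drugs, was 6.61, 6.60 and 6.57 in gastric arrays, at background, and 9.99, 10.09 and 10.05 in duodenal arrays, at least 9.37-fold higher. The alcohol dehydrogenase gene Adh4 was at least 11.7-fold and Cyp3a13 9.75-fold higher. Of 36 conjugating enzymes and exporters, 28 were higher in duodenal and 4 in gastric cells. Slc51b, the other subunit of the bile acid exporter, was at least 8.83-fold higher in duodenal cells and the glucuronosyltransferase genes Ugt2b36 and Ugt1a10 7.58-fold and 3.91-fold. Genes of the Cyp3a, Ugt1a and Ugt2b groups are close paralogs, so their single rows are uncertain. Sult1c2, a sulfotransferase, was the main exception at 12.13, 12.16 and 12.13 in gastric and 8.44, 8.47 and 8.33 in duodenal arrays, 13.2-fold higher in gastric cells.

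Nuclear receptors, the ligand-controlled transcription factors that regulate many of these enzymes, were higher in duodenal cells for 18 of 35 and in gastric cells for 6, with 14 under background in both. Nr1i3, a sensor of foreign compounds, was at least 3.55-fold higher in duodenal cells, Nr1h4, the bile acid receptor, 3.53-fold, Nr1h3, an oxysterol receptor, 2.79-fold and Nr1i2, the pregnane receptor, 2.41-fold. None of the 6 receptors higher in gastric cells reached 2-fold, and Rora, a clock-related receptor, led them with a log2 difference of 0.60.

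**Figure D3:**
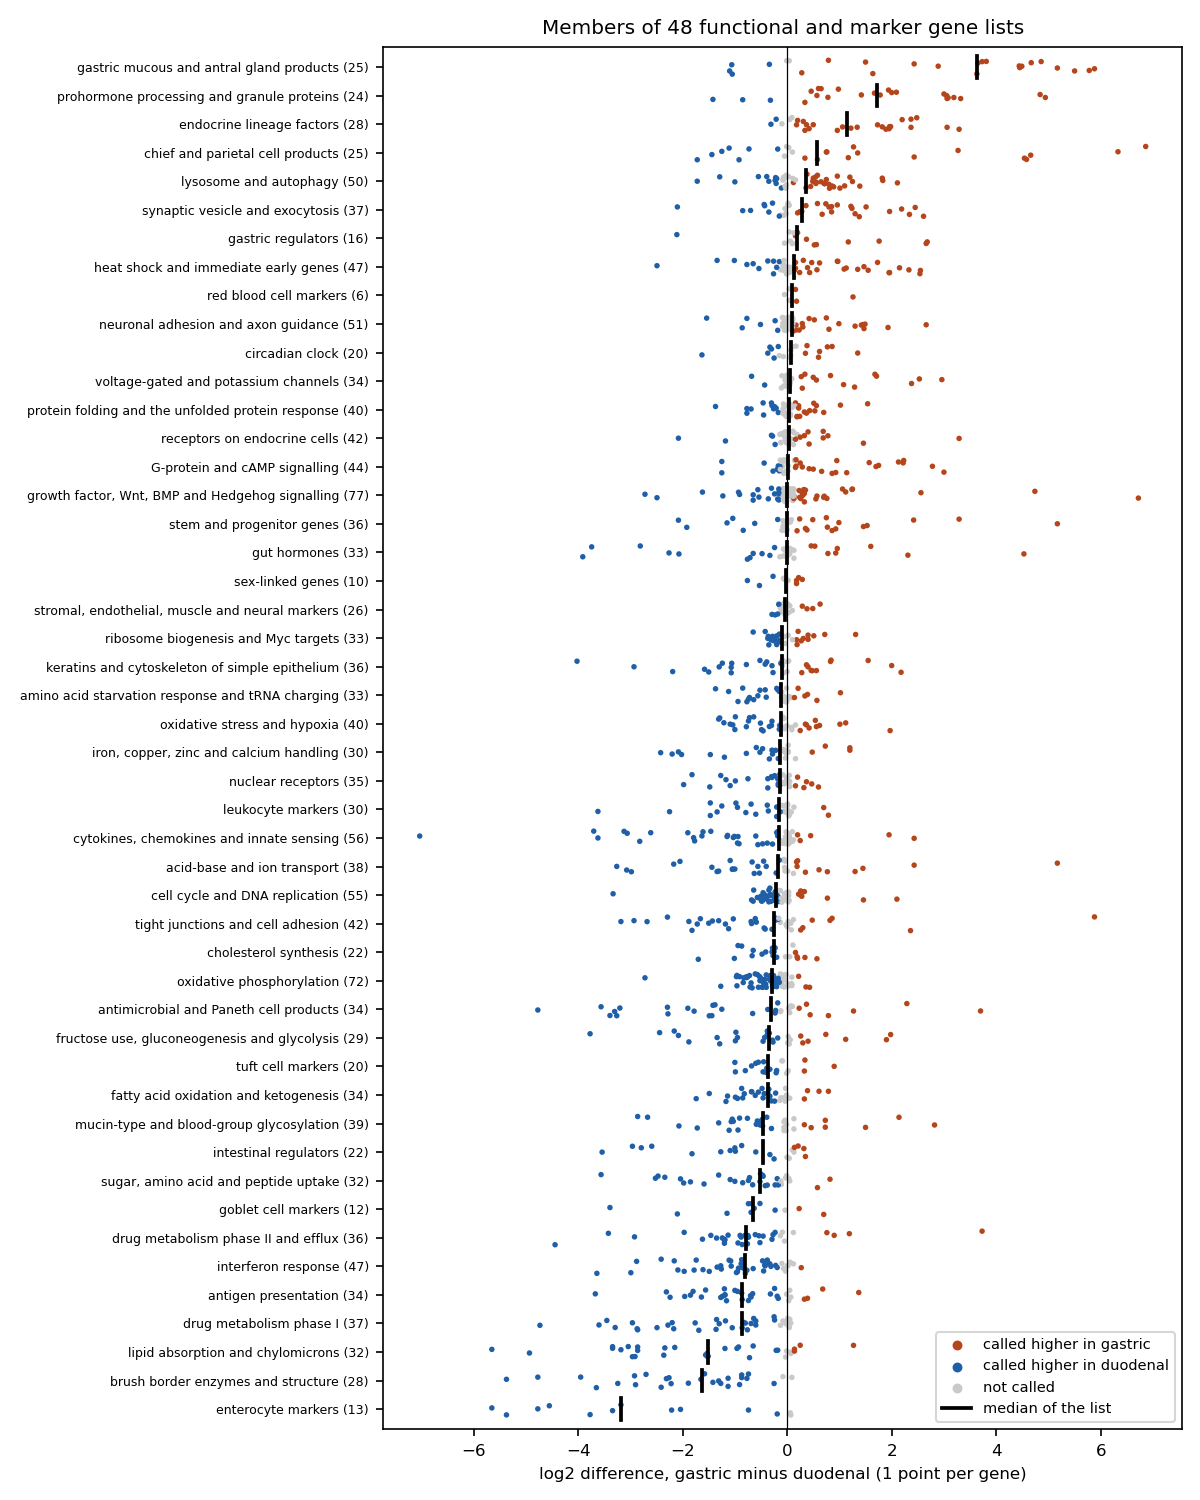
Log2 difference, gastric minus duodenal, of every measured member of 48 gene lists, with 1 point per gene, the number of measured genes in brackets and the list median as a black bar. Gastric mucous, granule and lineage lists lie to the right of 0, brush border, lipid absorption and enterocyte lists lie to the left, and stromal and sex-linked lists lie close to 0.

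Metal and ion handling was divided. Of 30 genes for iron, copper, zinc and calcium, 15 were higher in duodenal and 4 in gastric cells. Heph, which oxidises iron on its way to the blood, was 4.23-fold higher in duodenal cells, the zinc transporter gene Slc39a5 5.36-fold, the manganese exporter gene Slc30a10 at least 3.42-fold and S100g, the calcium-binding protein of absorptive cells, at least 4.24-fold. The metallothionein genes Mt1 and Mt2, which bind zinc and copper, were 2.29-fold and 2.3-fold higher in gastric arrays. Of 38 genes of acid-base and salt transport, 20 were higher in duodenal cells, such as the guanylin genes Guca2a (8.42-fold) and Guca2b (9.57-fold), which signal salt and water secretion, and the anion exchanger gene Slc26a6 (7.89-fold). The 10 higher in gastric cells included the carbonic anhydrase gene Car2 (5.38-fold).

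Junction and cytoskeleton genes went both ways. Of 42 junction and adhesion genes, 25 were higher in duodenal and 7 in gastric cells. Cdh17, the cadherin of intestinal epithelium, was 7.70, 7.75 and 7.83 in gastric and 10.94, 11.02 and 10.87 in duodenal arrays, whereas Cdh1, E-cadherin, was 12.04, 11.93 and 12.04 against 12.01, 11.96 and 12.02. The E-cadherin arrays overlapped, and the 95% interval of its difference was -0.09 to 0.11. Cldn15, a cation-permeable claudin, was 6.42-fold higher in duodenal cells and the galectin gene Lgals3 7.65-fold, while Cldn6 was 5.15-fold higher in gastric cells. Among 36 keratin and cytoskeleton genes, Krt18, a keratin of all simple epithelia, was 13.04, 13.07 and 13.20 against 13.13, 13.07 and 13.10 with a 95% interval of the difference of -0.11 to 0.11. Anxa13, an annexin of enterocytes, was 7.64-fold higher in duodenal cells and the annexin genes Anxa5 and Anxa1 3.99-fold and at least 3.8-fold higher in gastric cells. The beta-tubulin genes Tubb2b and Tubb4a also parted, 4.58-fold higher in duodenal and 2.93-fold higher in gastric cells.

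Of 47 interferon-induced genes, 38 were higher in duodenal and 1 in gastric cells, with 17 and 0 at 2-fold. Oas1g, a sensor enzyme of double-stranded RNA, was 7.54, 7.39 and 7.53 in gastric and 9.91, 9.87 and 9.89 in duodenal arrays. Igtp and Irgm2, named after their values were seen because their promoters hold the interferon motif, are GTPases against pathogens inside cells. Igtp was 7.75, 7.89 and 7.90 against 9.49, 9.79 and 9.60, and Irgm2 7.93, 8.05 and 7.95 against 9.62, 9.62 and 9.52. No gastric array of these genes reached a duodenal one. Oas1g has close copies among the Oas1 genes, so its row is uncertain. Ifi47 and Oasl2 were 7.37-fold and 7.95-fold higher in duodenal cells, and the exception, the related GTPase gene Irgm1, was 1.21-fold higher in gastric cells.

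Interferon-stimulated genes are known to share a promoter element with a repeated GAAA, and the 100 bases before the start are printed for the named genes, with that motif (GAAA repeated after any 2 bases, on either strand) in capitals. The RefSeq positions on GRCm38.p6 are chr5:120887614-120887713, minus strand for Oas1g, chr11:58199456-58199555, plus strand for Igtp and chr11:58214877-58214976, plus strand for Irgm2. None of the other motifs was found in these 3 promoters. In Oas1g the capitals join 2 overlapping matches, at bases 18 to 9 and 12 to 3 before the start.
Oas1g: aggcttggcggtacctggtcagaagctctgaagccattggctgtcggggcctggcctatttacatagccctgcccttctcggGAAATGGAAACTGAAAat
Igtp: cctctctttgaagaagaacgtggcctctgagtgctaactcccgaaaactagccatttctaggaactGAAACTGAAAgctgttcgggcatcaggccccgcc
Irgm2: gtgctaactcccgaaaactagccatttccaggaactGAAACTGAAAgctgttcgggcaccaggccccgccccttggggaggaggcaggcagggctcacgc

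The motif was found in 16 of 34 interferon genes with a promoter sequence (47.1%), beside 2.99% of all 13415 promoters and 2.72% of the 147 at least 4-fold higher in duodenal cells. Genes with the motif did not all move. Of the 16, 12 were called higher in duodenal cells, Irgm1 was higher in gastric cells, and Ifit1, Gbp2b and Cxcl10 were not called. The 29 interferon genes that were higher in duodenal cells and had a sequence held it in 41.4%.

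Antigen presentation genes went the same way, 26 of 34 higher in duodenal cells and 15 at least 2-fold. Psmb8 and Psmb9, proteasome subunits that shape peptides for display, were 3.88-fold and 4.97-fold higher, and the class I row H2-Bl 12.8-fold. Class I genes are close copies of each other, so which of them a row measured is uncertain. Cd1d1, which displays lipids, was 2.58-fold higher in gastric cells. Of 56 cytokine and innate sensing genes, 29 were higher in duodenal and 5 in gastric cells. Ccl25, the chemokine that draws lymphocytes to the small intestine, was 8.83, 8.83 and 8.83 in gastric and 12.51, 12.58 and 12.50 in duodenal arrays, and Cxcl17, a mucosal chemokine, was 9.11, 9.07 and 9.10 against 6.75, 6.64 and 6.58. These opposed genes separated the groups in every array.

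Leukocyte markers moved with these defence genes. Of 30, 16 were higher in duodenal and 2 in gastric cells, and 14 were under background in both. Ccl5, a chemokine of cytotoxic lymphocytes, was 6.66, 6.60 and 6.57 in gastric and 10.20, 10.25 and 10.24 in duodenal arrays, and the T-cell receptor gene Cd3g was 6.55, 6.66 and 6.58 against 8.87, 8.81 and 8.85. The gastric arrays of both were at background. The general leukocyte gene Laptm5 was close, at 8.56 ± 0.08 and 8.67 ± 0.03 (SD, n = 3), and it was called when gastric replicate 1 was left out (limma adjusted p 0.0454), and Lcp1 and Lyz2 were 1.62-fold and at least 1.69-fold higher in gastric arrays. The part of lymphocytes in the interferon and antigen presentation results was not tested.

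Antimicrobial products of Paneth and other cells were higher in duodenal cells for 20 of 34 and in gastric cells for 7. Reg3a was 7.07, 7.07 and 6.99 in gastric and 11.76, 11.88 and 11.79 in duodenal arrays, Ang4, an antibacterial ribonuclease of Paneth and goblet cells, was 10.5-fold higher in duodenal cells, and the defensin rows Defa26 and Defa5 were 11.8-fold and 9.82-fold higher. Defensin genes are near copies, so single rows are uncertain. Both defensin rows were also above background in gastric arrays, at 10.76, 10.77 and 10.85 for Defa26. Wfdc2, a secreted protease inhibitor, was 13-fold higher in gastric cells, and Dmbt1, a mucosal scavenger protein, was close in both (log2 difference 0.04). Goblet cell markers were higher in duodenal cells for 9 of 12, and their summed log2 level was 16.54 to 16.60 in gastric and 17.14 to 17.20 in duodenal arrays.

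Of 55 cell cycle genes, 33 were higher in duodenal and 8 in gastric cells, with a median of -0.22 and 1 against 2 at 2-fold. The 3 were inhibitors or stress-induced restrainers of the cycle. Cdkn1c, a cyclin-dependent kinase inhibitor of cells leaving the cycle, was 12.49, 12.58 and 12.47 in gastric and 10.42, 10.47 and 10.35 in duodenal arrays, and Cdkn2b, another inhibitor, was 8.01, 7.93 and 8.01 against 11.36, 11.33 and 11.24. The inhibitors went in opposite directions, 4.28-fold higher in gastric and 10-fold higher in duodenal cells, and Gadd45g, a growth arrest gene, was 2.75-fold higher in gastric cells. The mitotic genes Nusap1 and Aurka were 1.6-fold and 1.55-fold higher in duodenal cells. Of 36 stem and progenitor genes, 15 were higher in gastric and 7 in duodenal cells. Sox9 was 2.89-fold and the Notch modifier gene Mfng 5.34-fold higher in gastric cells, Olfm4, a crypt base gene of unclear role, was 4.22-fold and the secretory factor gene Gfi1 3.79-fold higher in duodenal cells, and the Wnt target gene Axin2 was close (95% interval -0.13 to 0.07). Of 33 ribosome biogenesis and Myc target genes, 10 were higher in gastric and 16 in duodenal cells, and Mycl, a relative of Myc, was alone in differing 2-fold (2.47-fold higher in gastric cells).

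Mitochondrial genes shifted together by a small amount. Of 72 genes of oxidative phosphorylation, 53 were higher in duodenal and 3 in gastric cells, with a median of -0.29. Mitochondrial ribosomal proteins, a family of 75 rows, showed the same, with 53 and 7, a median of -0.25 and 0 at 2-fold either way. The 58 cytosolic ribosomal proteins had a median of 0.06, with 19 higher in gastric and 11 in duodenal cells. Cox7a1, a cytochrome oxidase subunit known from muscle, was 8.59, 8.74 and 8.68 in gastric and 11.40, 11.40 and 11.37 in duodenal arrays, 6.57-fold higher in duodenal cells, while Cox6a1 was close in both (log2 difference -0.02).

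Lysosome and autophagy genes leaned to gastric cells, 27 of 50 against 11, with a median of 0.37. The cathepsin gene Ctsf was 9.03, 9.15 and 9.16 in gastric and 7.0, 6.85 and 7.17 in duodenal arrays, and the autophagy genes Gabarapl1 and Ulk1 were 3.56-fold and 2.62-fold higher in gastric arrays. Ctss, the cathepsin that prepares class II molecules, was 3.29-fold higher in duodenal cells. Protein folding genes, 15 higher in gastric and 12 in duodenal of 40, had a median of 0.03. Ero1b, an oxidase of the secretory pathway abundant in endocrine cells, was 2.91-fold higher in gastric cells, and Chac1, a stress-induced glutathione-degrading enzyme, 2.58-fold higher in duodenal cells. In the list of amino acid starvation and tRNA charging genes (6 higher in gastric and 16 in duodenal of 33), Asns, which makes asparagine, was 2.03-fold higher in gastric cells, and Cth, which makes cysteine, 2.17-fold higher in duodenal cells.

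Of immediate early and heat shock genes, many of which are known to respond to tissue handling, those that differed were mostly higher in gastric cells. Of 47, 24 were higher in gastric and 11 in duodenal cells, with 12 and 3 at 2-fold. Egr1 was 14.22, 14.08 and 14.18 in gastric and 11.57, 11.64 and 11.63 in duodenal arrays. Fosb, Klf2 and Atf3 were 5.84-fold, 5.04-fold and 4.43-fold higher in gastric cells. Areg, a growth factor, was 5.61-fold higher in duodenal cells, and Hspa1a, the inducible heat shock protein, 2.53-fold. The dissociation of the segments differed, and its part was not tested. In the antioxidant and hypoxia list, Gpx3, a secreted peroxidase, was 3.92-fold and Vegfa 2.17-fold higher in gastric cells, and thioredoxin (Txn1) 2.48-fold and Egln3, an oxygen-sensing hydroxylase, 2.45-fold higher in duodenal cells.

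Signalling genes included some large differences. Of 77 genes of growth factor, Wnt, BMP and Hedgehog signalling, 29 were under background in both groups, 23 were higher in gastric and 18 in duodenal cells. Igfbp5, which binds insulin-like growth factors, was 11.50, 11.56 and 11.60 in gastric and 6.84, 6.82 and 6.76 in duodenal arrays, the latter close to background, and Igfbp7 was 5.9-fold higher in gastric cells. Tgfbi, a secreted matrix protein, was 6.57-fold higher in duodenal cells and Bmp3 at least 2.79-fold. The Hedgehog ligand gene Ihh was close in both (95% interval of the difference -0.06 to 0.14). In the clock list, Bhlhe40 was 3.1-fold higher in duodenal cells, and Csnk1e and Cry2 were 2.54-fold and 1.82-fold higher in gastric arrays.

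Whole gene families, taken by symbol, placed these lists among all genes of their kind. Family percentages count all measured rows, also those under background. They are read beside all 18131 rows, of which 738 were at least 2-fold higher in gastric and 670 in duodenal cells (7.77% together). Solute carriers (333 rows) were at least 2-fold higher in duodenal cells for 9.91% and in gastric cells for 3.6%. Cytochromes P450 (75 rows) were so for 17.3% and 1.33%, and histocompatibility genes (36 rows) for 22.2% and 0%. On the gastric side, calcium channel subunits (21 rows) stood at 19% and 0% and Sox genes (17 rows) at 17.6% and 0%. Regulators of G-protein signalling (20 rows) stood at 20% and 5%. These gastric percentages rest on only 4, 3 and 4 rows, and 13, 9 and 7 rows of these families were under background in both groups. The largest gastric solute carrier was Slc38a5, a glutamine transporter, at 11.40, 11.31 and 11.28 in gastric and 6.62, 6.67 and 6.82 in duodenal arrays, with a duodenal mean of 6.70, under the background level. Of 274 zinc finger genes of the Zfp series, 43.4% were called, near the 46.6% of all rows, and the median difference was 0.02. Of these genes, 76 were higher in gastric and 43 in duodenal cells, with Zfp532 the largest (at least 2.79-fold higher in gastric cells). Of 69 histones, 71% were called, 40 higher in duodenal and 9 in gastric cells. Of 39 Hox genes, 34 were under background in both groups, and Hoxb2, at least 1.77-fold higher in duodenal cells, differed most.

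**Figure D4:**
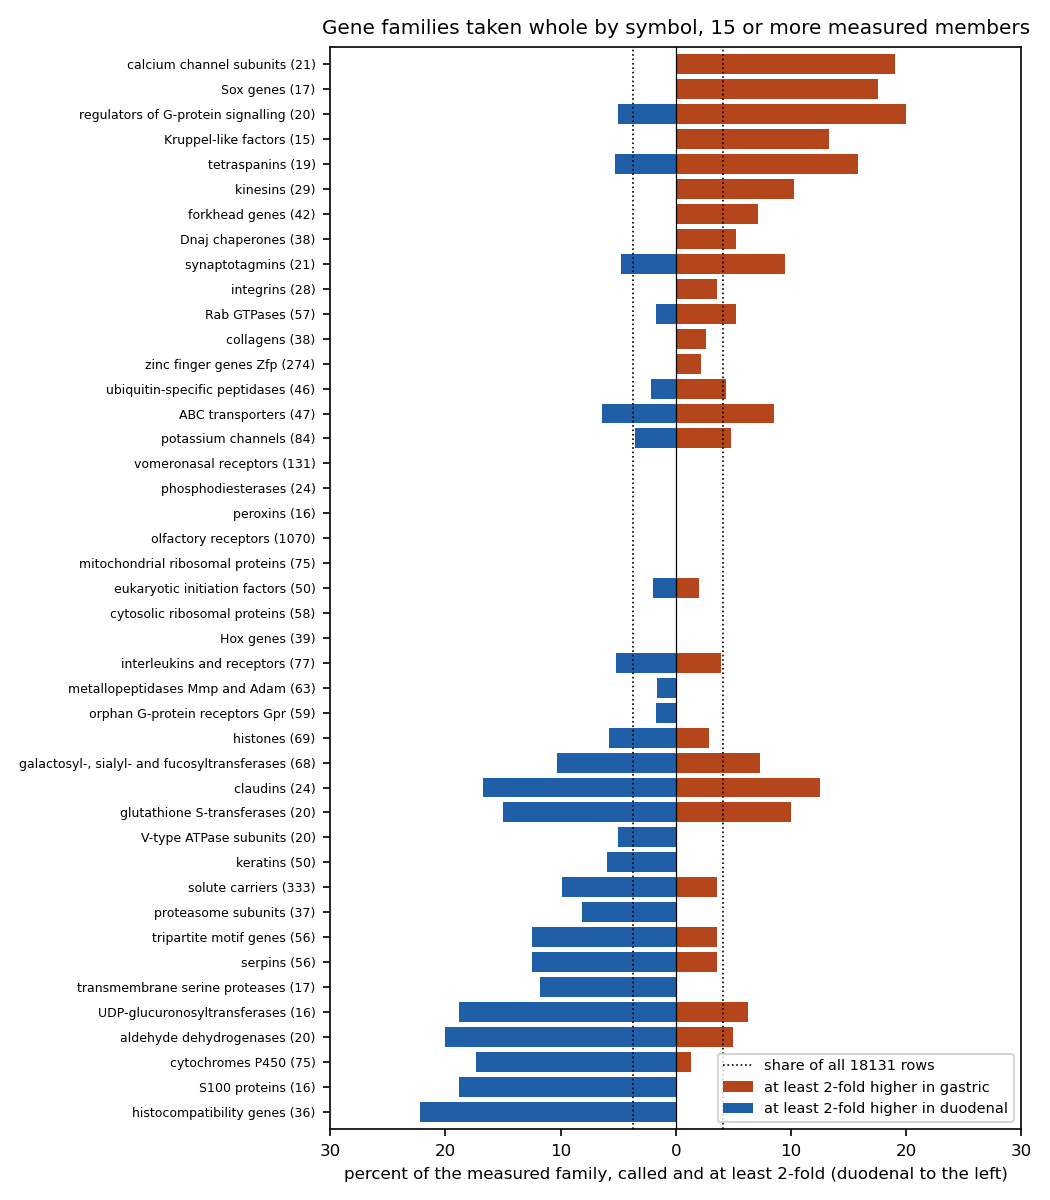
Percent of each gene family with 15 or more measured members that was called and at least 2-fold higher in gastric (right) or duodenal (left) cells, with dotted lines at the shares of all 18131 rows. Calcium channel subunits, Sox genes and regulators of G-protein signalling reach furthest to the right on balance, and histocompatibility genes, S100 proteins and cytochromes P450 furthest to the left.

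Minor cell types and sex-linked genes gave smaller differences. Of 20 tuft cell markers, 13 were higher in duodenal and 3 in gastric cells, among them the kinase gene Dclk1 (1.74-fold) and the signalling gene Vav1 (2.01-fold) in duodenal and the actin-binding gene Avil (1.87-fold) in gastric cells. The haemoglobin gene Hba-a1 was 8.23, 8.27 and 8.38 in gastric and 7.02, 7.06 and 7.02 in duodenal arrays, and the 6 red blood cell markers summed to 9.69 to 9.72 and 9.28 to 9.29. Of 10 sex-linked genes, 4 were higher in gastric and 3 in duodenal cells, with 0 at 2-fold. The 3 higher in duodenal cells were all Y-linked, Eif2s3y, Kdm5d and Uty (log2 differences -0.76, -0.53 and -0.27). Eif2s3y was 8.87, 8.90 and 9.0 in gastric and 9.76, 9.65 and 9.63 in duodenal arrays. The Y-linked gene Ddx3y went the other way, at 9.36, 9.42 and 9.35 against 9.18, 9.21 and 9.20. The X-linked genes Xist, Eif2s3x and Kdm5c were higher in gastric cells (0.29, 0.22 and 0.18). The part of the animals' sex was not tested. Xist, of the inactive X chromosome, was 6.93 and 6.64, near background in both.

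Actb and Pdx1 differed little. Actb was 12.77 ± 0.01 and 12.89 ± 0.03 (SD, n = 3), a called difference of -0.12, and the call was lost without any of the gastric arrays and without duodenal replicate 2 or 3 (adjusted p by limma for Actb 0.0562 to 0.107). Pdx1, known for its role in pancreas, antrum and duodenum, was 8.95 ± 0.11 and 9.17 ± 0.03 (SD, n = 3), and its call was lost when gastric replicate 3 was left out (adjusted p by limma 0.0936). Epcam, a marker of all epithelia, has no row in the table used here.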

How the data were processed

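Per the labels, biotin-labelled cRNA of total RNA from sorted GFP-positive cells was hybridised to Illumina bead arrays. The authors deposited log-scale expression values, treated here as log2, 1 row per gene symbol, made with GenomeStudio, lumi and limma per the submitters' processing notes. The log base, normalization settings and joining of probes are not given in the sources used here. Values spanned 6.22 to 15.49, and base 2 was assumed. The value table carries no detection p-values.

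Of 18131 rows, 14305 matched a current and 2659 an older RefSeq symbol (GRCm38.p6), and unmatched rows kept their names. With limma 3.58.1 in R 4.3.3, 1 mean for each segment was fitted over the 8 arrays with empirical Bayes moderation, checked on simulated data. The call threshold was 0.05 on p adjusted by Benjamini-Hochberg over all rows. Folds are 2 to the power of the log2 difference. Where the dim group's mean was under the olfactory level of 6.81, the fold is given as at least N-fold, with each dim array raised to 6.81. A low value can come from a poor probe.

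The 48 lists, 50 families and members were chosen with earlier results of these data known. Named by rule were the 15 highest and 15 lowest differences among called rows matched to a gene with non-overlapping arrays, up to 4 called members of each list each way, up to 2 list members whose 95% interval lay within 0.25 of 0, the largest member of a family each way, and a fixed few such as Neurog3. Alternatives were quantile normalization again, median centring, only rows above background, only rows matched to a current gene, trend and robust variance, only the 6 compared arrays, a replicate block and each array left out. Replicate numbers did not pair the arrays. Python 3.11.15, pandas 2.3.3 and matplotlib 3.10.9 did the rest. Some genes are not reported here.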

Additional observations from a re-analysis of the deposited data

How the results depend on the processing

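The counts of called genes ran from 7916 to 8455 over 13 alternatives, beside 8446, and those at 2-fold from 1320 to 1417, beside 1408. The replicate block, whose numbers did not pair the arrays (correlations of same-numbered deviations -0.01 to 0.01), gave 8418 and 1408. Leaving out 1 array gave 7916 to 8133 called genes and 1408 to 1417 at 2-fold. All 48 list counts stayed within 1.5 times their value. Of 472 named genes, 456 kept direction and call in every alternative that held their row, and none turned. A few had no row where the table was limited to rows above background or to rows matched to a current gene. The calls of Pdx1, Actb, Gata6, Klf5 and 10 other genes with small differences were lost in some alternative, and Slc52a3 and Laptm5 passed in some. The rows held no depth or detection value, so genes under 6.81 in both groups, 7556 rows, could not be told from background.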

Other observations

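The genes below were chosen after their values were seen and belong to no list. On the gastric side, Ptf1a, a transcription factor known for pancreatic development, was 10.01 in gastric cells and under background in duodenal (6.54) and colonic arrays (6.56 and 6.72), at least 9.18-fold higher than in duodenal cells. Smarca1, a chromatin remodelling enzyme, was 11.66, 11.67 and 11.71 in gastric and 7.55, 7.55 and 7.48 in duodenal arrays. Hap1, a partner of huntingtin in neurons and endocrine cells, was 13.4-fold higher, Vtn, a secreted adhesion protein, at least 11.8-fold, and the related genes Maged1 and Maged2 7.83-fold and 8.4-fold. All of these separated the groups in every array.

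On the duodenal side, Afp, the fetal albumin relative alpha-fetoprotein, was 7.55, 7.52 and 7.69 in gastric and 11.17, 11.14 and 11.14 in duodenal arrays and under background in colonic arrays (6.76 and 6.68). Cps1, the first enzyme of the urea cycle, was 6.23-fold higher, and Arg2, the mitochondrial arginase, 14.6-fold. Apobec1, which edits the apolipoprotein B transcript, was 11.8-fold higher, Xdh, which makes uric acid, 6.77-fold, Hkdc1, a hexokinase relative, 10.3-fold, and Prap1, an acidic secreted protein, 12.5-fold.

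Cpa1, a carboxypeptidase, was 6.70 in gastric, 7.62 in duodenal and 8.32 and 8.29 in the colonic arrays. The trypsinogen row Prss2 was 6.83 in gastric, 7.96 in duodenal and 9.23 and 9.01 in the colonic arrays, and Try4 was 7.26, 8.21 and 9.37 and 9.48. Trypsinogen genes are close copies, so single rows are uncertain. In each of these 3 rows both colonic arrays were above the gastric and duodenal means. Rnase1, a secreted ribonuclease, was 3.54-fold higher in duodenal than in gastric cells.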
